A study of Homo sapiens with 6 samples.

Results

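The 30 genes described here encode the enzymes that build sterols and fatty acids, and the proteins that set how much of those enzymes a cell makes. They were chosen by symbol, and all 30 were found among the 26372 genes of the deposited expression table. Of these, 18 form the sterol arm, 7 form the fatty acid arm, and 5 are regulators of the pathway or, in the case of STARD4, a sterol transfer protein. RNA came from BE(2)-M17, an established neuroblastoma line of human origin with MYCN amplification. There were 3 libraries of cells with GOMAFU knockdown (replicates 2, 3 and 4) and 3 libraries of control cells (replicates 2, 3 and 4). GOMAFU is a long non-coding RNA retained in the nucleus and listed under the symbol MIAT; the study placed it in a pathway with miR-137 in neuronal differentiation. Per the labels' protocols, cells were transfected with 100 pmol of small RNA using a lipid reagent; what the control cells received and which sequence gave the knockdown are not stated there. All 6 libraries share the line and the polyadenylated RNA input. Nothing in the labels says whether replicates were separate cultures, so p-values measure only how far these samples spread, and that spread may be technical.

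Cholesterol is built from acetyl-CoA by way of mevalonate, isoprenoid diphosphates, squalene and lanosterol, and fatty acids are built from the same acetyl-CoA by carboxylation, chain assembly, elongation and desaturation. Both routes are switched on by the SREBP transcription factors, the products of SREBF1 and SREBF2. These factors are held in the endoplasmic reticulum by SCAP and INSIG proteins when sterols are plentiful, and are cut and released to the nucleus when sterols run low. SREBP-2 acts mainly on sterol genes and SREBP-1c mainly on fatty acid genes. Neural cells make most of their own cholesterol, since lipoproteins do not cross the blood-brain barrier.

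Values are FPKM, fragment numbers divided by transcript length and by how many fragments were mapped. The targeted transcript MIAT was at 1.27, 1.32 and 3.21 FPKM in knockdown replicates 2, 3 and 4, beside 5.38, 5.96 and 8.57 FPKM in control replicates 2, 3 and 4, so the groups did not overlap (exact two-sided permutation test p = 0.1, the smallest that 3 against 3 allows). Relative sequencing depth, read from the steps between low values, was 1.06 to 1.36 in the knockdown libraries and 0.972 to 1.10 in the control libraries, in units of control replicate 3. Knockdown replicate 4 stood apart: its correlation with the other 5 libraries over the tested genes was 0.940 to 0.956, while the other libraries correlated with their closest partner at 0.990 to 0.997. The same library held the strongest interferon response. Over 10 interferon markers, the summed level was 386.2, 58.6 and 7760 FPKM in knockdown replicates 2, 3 and 4, beside 29.6 to 32.3 FPKM in the controls. Among adrenergic neuroblastoma markers, PHOX2A, HAND2, GATA3, DBH and MYCN were well expressed in all libraries, whereas TH was at 0.0406 to 0.0872 FPKM. Of 6 mesenchymal or fibroblast markers, PRRX1 and COL1A2 were listed at 0 in all 6 libraries. SNAI2, the only one whose mean reached 1 FPKM, was at 4.09, 4.51 and 5.54 FPKM in knockdown replicates 2, 3 and 4. In control replicates 2, 3 and 4 it was at 3.82, 4.13 and 3.46 FPKM. The list summed to 5.16 to 6.94 FPKM in knockdown libraries and to 4.16 to 5.20 FPKM in control libraries.

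No gene of the 30 passed the threshold of an adjusted p under 0.05 (limma on log2(FPKM + 1), adjusted over the 12164 genes whose mean reached 1 FPKM). Over all tested genes the counts were likewise 0 lower and 0 higher, 0.0% each, with 145 lower (1.19%) and 118 higher (0.97%) at an unadjusted p under 0.05. All 30 members passed the filter on low values, with control means from 12.5 FPKM for TM7SF2 to 273.9 FPKM for SCD. Adjusted p was at least 0.9998 for each of them. The description that follows therefore rests on values by library. In bulk RNA, fewer cells of a type and less RNA per cell cannot be told apart.

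**Figure D1:**
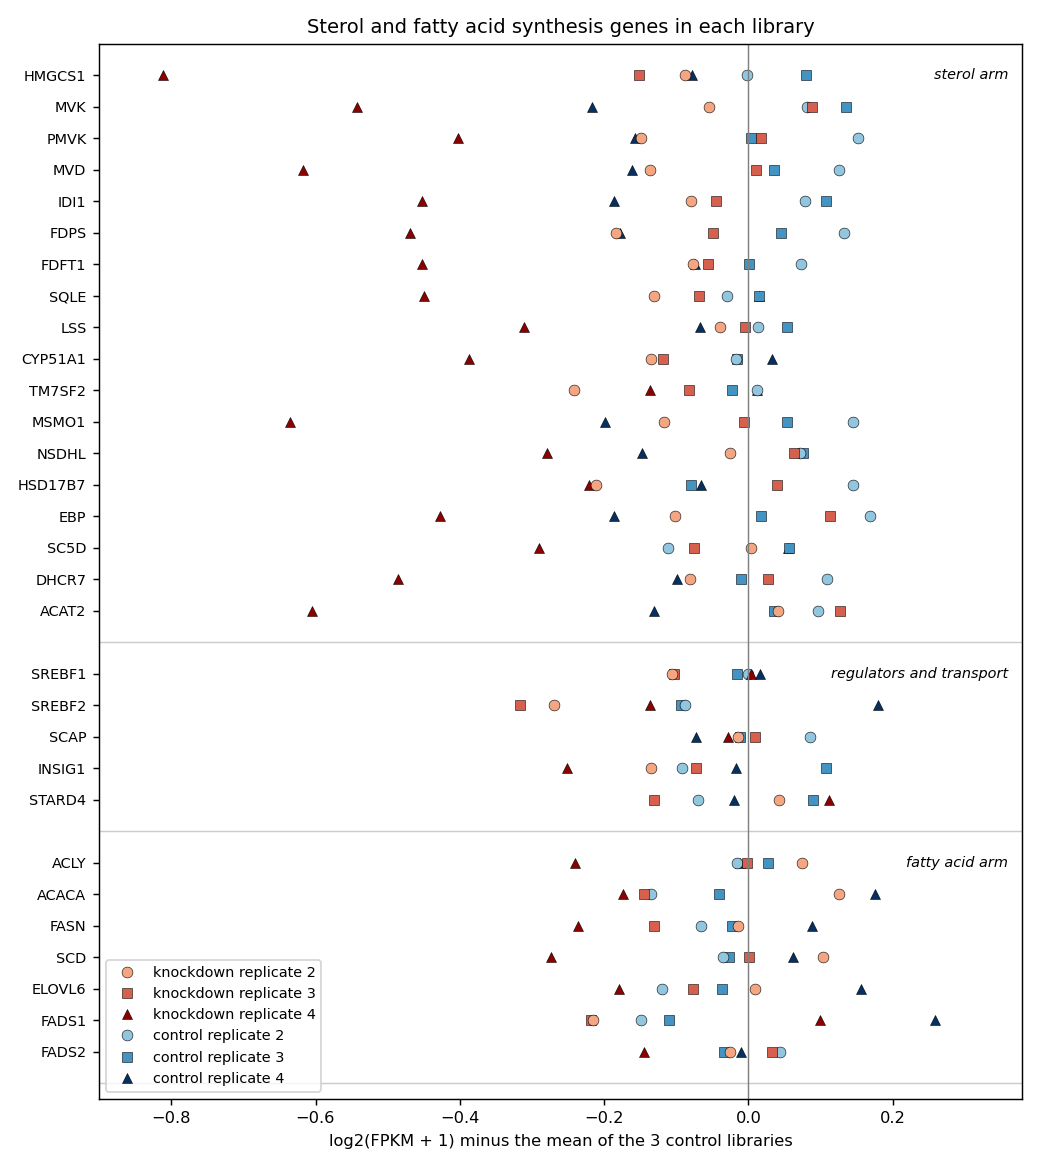
Level of each of the 30 genes in each library, as log2(FPKM + 1) minus the mean of the 3 control libraries (x axis), for knockdown libraries (red shades) and control libraries (blue shades), with genes in rows grouped by arm. Dark red triangles, knockdown replicate 4, lie left of every control for all 18 sterol arm genes, whereas knockdown replicates 2 and 3 mostly lie among the controls.

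All 18 sterol arm genes were fitted lower in knockdown than in control cells, with a median log2 difference of -0.18 and a range from -0.35 to -0.08. Over all tested genes, 53.3% were fitted below 0 and the median was -0.01. The arm's 3 knockdown libraries were far from alike. Its median relative to the control mean was -0.09, -0.01 and -0.45 in knockdown replicates 2, 3 and 4, beside 0.08, 0.04 and -0.12 in control replicates 2, 3 and 4. In knockdown replicate 4 all 18 genes lay below all 3 controls, where 35.9% of tested genes did. In knockdown replicate 2, 7 of 18 did so, against 25.9% of tested genes, and in knockdown replicate 3 the count was 4 of 18, close to the 21.2% of tested genes. Above all 3 controls lay 0, 1 and 0 of the 18 genes in knockdown replicates 2, 3 and 4, where 23.1%, 22.7% and 30.7% of tested genes did. The arm's median was -0.06 without knockdown replicate 4, -0.11 without both libraries numbered 4, and -0.27 without knockdown replicate 3. The order of the knockdown libraries in sterol arm level, from replicate 4 through replicate 2 to replicate 3, was also their order in summed interferon markers; the part of the interferon response in this result was not tested.

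The opening steps, which take acetyl-CoA to isopentenyl diphosphate, were lowest in knockdown replicate 4. HMGCS1, which makes the substrate of the committed step of the mevalonate pathway, was at 54.6, 52.2 and 32.7 FPKM in the knockdown libraries, against 58.0, 61.4 and 54.9 FPKM in the controls. Knockdown replicates 2 and 3 sat just under the lowest control, while knockdown replicate 4 was at 56.2% of the control mean and lower than all but 0.584% of tested genes on the same scale. HMGCS1 also had the lowest log2 difference of the 30 genes, -0.35 (SE 0.19, limma unadjusted p = 0.107). Without knockdown replicate 4 it was -0.12, and SREBF2 was then the lowest, at -0.29. ACAT2, the cytosolic thiolase that supplies acetoacetyl-CoA, was at 44.2, 47.0 and 27.9 FPKM in the knockdown libraries, against 46.0, 44.0 and 39.1 FPKM in the controls. Its groups overlapped, and knockdown replicate 3 lay above every control. MVD, the decarboxylase that yields isopentenyl diphosphate, was at 21.5, 23.9 and 15.1 FPKM in knockdown cells and at 25.9, 24.3 and 21.1 FPKM in control cells, a log2 difference of -0.25 (SE 0.17) that was -0.06 without knockdown replicate 4. Only its replicate 4 value in knockdown cells left the range of the controls. The kinases MVK and PMVK were at 67.0% and 75.0% of their control means in knockdown replicate 4 and within the control range in knockdown replicates 2 and 3. Reads of ACAT2 may be counted with those of TCP1 and SOD2, which overlap it on the opposite strand, and those of MVK with MMAB, because nothing in the labels says that strand was kept.

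The 3 enzymes from isopentenyl diphosphate to squalene lay close to each other in knockdown replicate 4. IDI1, which isomerises isopentenyl diphosphate, was at 58.9, 60.4 and 45.3 FPKM in knockdown libraries and at 65.8, 67.2 and 54.6 FPKM in control libraries. FDPS, which makes farnesyl diphosphate, was at 198.4, 217.8 and 162.5 FPKM in knockdown libraries, against 247.2, 232.6 and 199.05 FPKM in control libraries, so control replicate 4 lay close to knockdown replicate 2. FDFT1, the squalene synthase that commits farnesyl diphosphate to sterols, was at 122.6, 124.3 and 94.3 FPKM in knockdown cells, against 136.1, 129.4 and 122.8 FPKM in control cells. In knockdown replicate 4 these genes lay at 71.8% to 72.8% of their control means, and in knockdown replicate 3 at 96.1% to 96.5%. RUSC1-AS1, at a mean of 17.4 FPKM, overlaps FDPS on the opposite strand, and FDPS has 8 annotated pseudogenes, so reads may be shared.

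The epoxidase and the demethylase that follow did not overlap between groups. SQLE, the squalene epoxidase and a rate-limiting enzyme of the route, was at 103.4, 108.0 and 82.7 FPKM in knockdown libraries, against 110.97, 114.4 and 114.5 FPKM in control libraries. The controls spanned a narrow range and every knockdown value lay below it; the log2 difference was -0.22 (SE 0.11, limma unadjusted p = 0.0878). LSS, which closes squalene epoxide into lanosterol, overlapped between groups, at 51.8, 53.1 and 42.8 FPKM in knockdown cells and 53.8, 55.3 and 50.8 FPKM in control cells. CYP51A1, the lanosterol demethylase, was at 49.5, 50.1 and 41.4 FPKM in knockdown libraries and at 53.8, 53.9 and 55.8 FPKM in control libraries. Here too all 3 knockdown values lay below the controls, and the mean was 47.0 ± 4.86 FPKM in knockdown cells and 54.5 ± 1.09 FPKM in control cells (SD, n = 3 each). The log2 difference of CYP51A1 was -0.21 (SE 0.09), with an unadjusted p of 0.0508 in limma, the smallest in the sterol arm and rank 271 among the tested genes. CYP51A1 spans chromosome 7 from 92112151 to 92134803 on the minus strand (GRCh38), where CYP51A1-AS1 overlaps it.

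The 8 steps from lanosterol on, CYP51A1 included, ranged from 63.6% to 90.2% of the control mean in knockdown replicate 4. MSMO1, the sterol methyl oxidase, was at 69.7, 75.4 and 48.4 FPKM in knockdown libraries and at 83.8, 78.6 and 65.9 FPKM in control libraries, a log2 difference of -0.25 (SE 0.18). Without knockdown replicate 4 it was -0.06. The groups of MSMO1 overlapped, because control replicate 4 lay below knockdown replicates 2 and 3. TM7SF2, a sterol reductase, was the exception to the pattern by library: it was at 10.4, 11.8 and 11.3 FPKM in knockdown replicates 2, 3 and 4, beside 12.6, 12.3 and 12.6 FPKM in controls. Its lowest value was in knockdown replicate 2, and the groups did not overlap. TM7SF2 overlaps the gene VPS51, with which reads may be shared. DHCR7, which carries out the last reduction to cholesterol, was at 70.5% of its control mean in knockdown replicate 4, and EBP, the sterol isomerase, at 73.7%. NSDHL, HSD17B7 and SC5D, which finish demethylation and desaturation of the ring, were at 81.5%, 84.7% and 80.3%. HSD17B7 has a pseudogene in the table, HSD17B7P2, at a mean of 1.86 FPKM, and reads shared with it are uncertain. In knockdown replicate 4 the median of the 5 opening steps was -0.61 and that of the 8 steps from lanosterol on was -0.34.

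HMGCS1, SQLE, CYP51A1 and TM7SF2 were thus the 4 sterol arm genes whose 3 knockdown values lay below all 3 controls, 4 of 18, where 4.35% of tested genes did. Leaving out a library cannot create overlap, so these 4 genes were bound to remain without it when knockdown replicate 4 was left out. No further sterol gene joined them, so the count stayed 4 of 18, against 11.7% of tested genes in that comparison. Without that library the log2 difference was -0.10 for SQLE, -0.13 for CYP51A1 and -0.16 for TM7SF2, and in 17 of the 18 sterol genes, all but TM7SF2, it was smaller by more than 1.5 times or above 0. Without both libraries numbered 4 the count was 11 of 18, against 19.4%. Control replicate 4 was the lowest control for 13 of 18 sterol genes, against 43.5% of tested genes. Leaving it out thus raised the lowest control value for more of this arm than of the tested genes, so the 2 shares are not on equal terms.

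**Figure D2:**
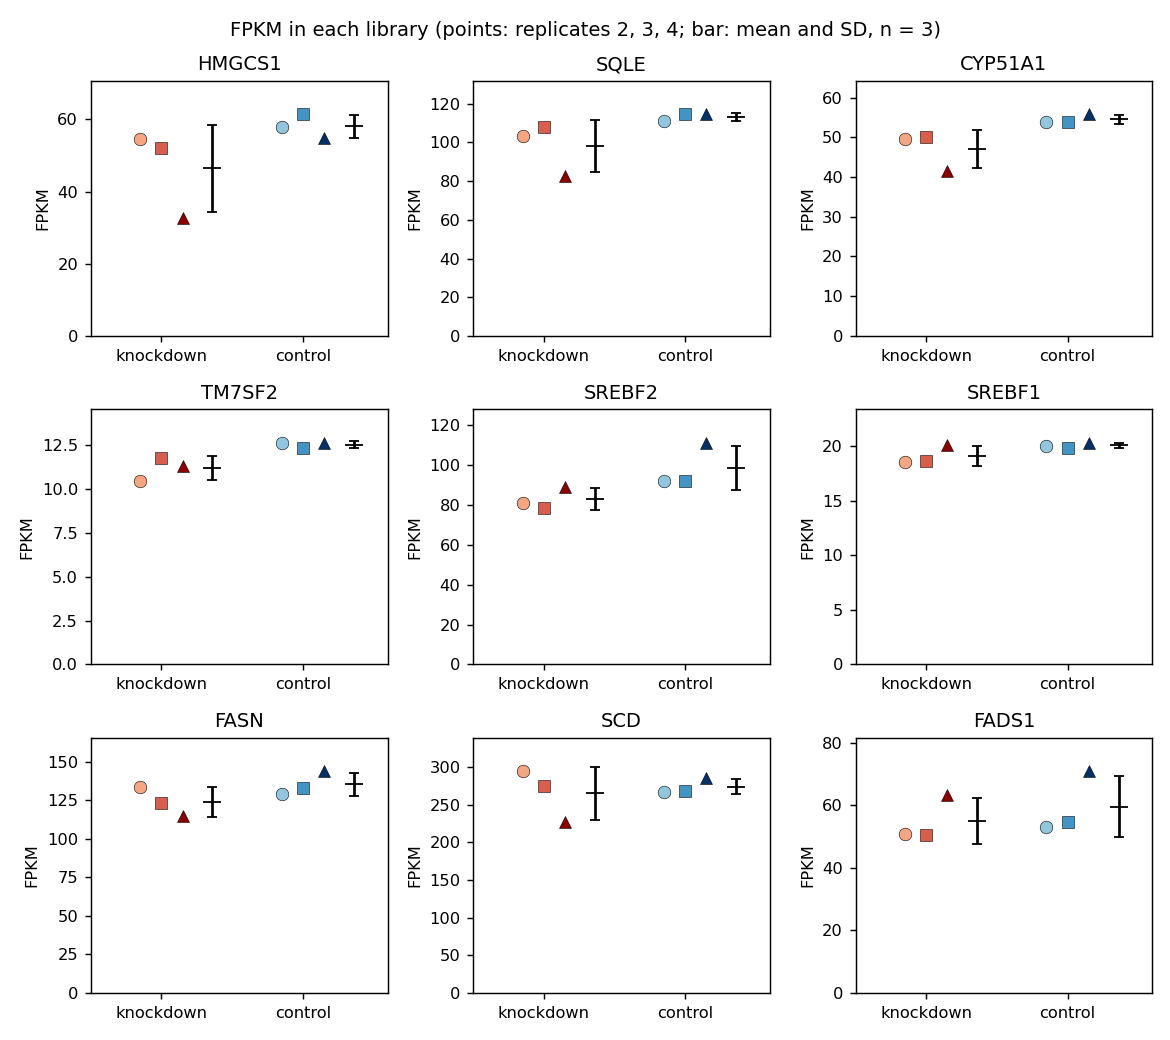
FPKM (y axis, from 0) of 9 genes in each library, knockdown left and control right, with points for replicates 2, 3 and 4 and a bar for mean and SD (n = 3). The 3 knockdown values lie below the 3 control values for HMGCS1, SQLE, CYP51A1, TM7SF2 and SREBF2, and overlap them for SREBF1, FASN, SCD and FADS1.

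Of the regulators, SREBF2 alone had no overlap between groups. It was at 81.0, 78.5 and 89.0 FPKM in knockdown libraries, against 92.1, 91.7 and 111.05 FPKM in control libraries. The mean was 82.8 ± 5.49 FPKM in knockdown cells and 98.3 ± 11.04 FPKM in control cells (SD, n = 3 each). Its highest value in each group was in the library numbered 4. The log2 difference of SREBF2 was -0.24 (SE 0.10) with an unadjusted p of 0.0475 in limma, the only one of the 30 genes under 0.05, where 1.19% of tested genes were lower at that level. SREBF2 was lowest in knockdown replicates 2 and 3, at 82.4% and 79.8% of the control mean, and stood at 90.5% in knockdown replicate 4, the library in which the sterol enzymes were lowest. SREBF2 is on the plus strand of chromosome 22, from 41833079 to 41907308 (GRCh38), the chromosome that also carries MIAT. Genes of chromosome 22 lay lower than the rest: the median log2 difference of the 291 tested genes there was -0.14, against -0.0064 for the 11252 tested genes placed on other chromosomes. For 43 other tested genes within 2 Mb of SREBF2 the median was -0.19, and it was -0.21, -0.14 and -0.25 in knockdown replicates 2, 3 and 4, beside 0.08, -0.01 and -0.05 in control replicates 2, 3 and 4. Without overlap, 32.6% of these neighbours were lower in knockdown cells, as SREBF2 was. The same share was 27.5% over the tested genes of chromosome 22 and 3.79% over those on other chromosomes. The part of this regional difference in the SREBF2 value was not tested.

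The other 4 had log2 differences nearer to 0 than that of SREBF2. SREBF1 was at 18.6, 18.6 and 20.1 FPKM in knockdown libraries and at 20.1, 19.8 and 20.3 FPKM in control libraries. Knockdown replicates 2 and 3 were below all controls, and knockdown replicate 4 was among them, at 100.3% of the control mean. RAI1, at a mean of 13.6 FPKM, overlaps SREBF1 on the opposite strand, so reads may be shared. SCAP, the sterol-sensing escort of the SREBPs, was at 21.6, 21.9 and 21.3 FPKM in knockdown cells, against 23.2, 21.6 and 20.7 FPKM in control cells, and is the only one of the 30 genes with all 3 knockdown values inside the control range. INSIG1, which retains SCAP and is itself an SREBP target, was at 16.8, 17.5 and 15.4 FPKM in knockdown libraries, against 17.3, 20.0 and 18.3 FPKM in control libraries, with a log2 difference of -0.15 (SE 0.09). Its groups overlapped through knockdown replicate 3 alone. By library it was at 90.4%, 94.6% and 83.0% of the control mean in knockdown replicates 2, 3 and 4, the same order as the sterol arm medians. STARD4, which carries cholesterol between membranes, had the highest log2 difference of the 30 genes, 0.0078 (SE 0.09). It was at 54.0, 47.8 and 56.7 FPKM in knockdown libraries and at 49.9, 55.8 and 51.7 FPKM in control libraries, and in knockdown replicate 4 it lay above all controls.

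The 7 fatty acid arm genes were also all fitted below 0, with a median log2 difference of -0.06 and a range from -0.13 to -0.05. The arm's median relative to the control mean was 0.01, -0.08 and -0.18 in knockdown replicates 2, 3 and 4, beside -0.07, -0.03 and 0.09 in control replicates 2, 3 and 4. In knockdown replicate 4, 6 of 7 lay below all controls, where 35.9% of tested genes did. The counts were 1 of 7 in knockdown replicate 2, under its 25.9% of tested genes, and 3 of 7 in knockdown replicate 3, where 21.2% did. No member of this arm was without overlap between the groups, where 4.35% of tested genes were lower and 4.01% higher without it. A count of none among 7 genes is near those shares. FASN, the fatty acid synthase, had the lowest log2 difference, -0.13 (SE 0.09, and -0.07 without knockdown replicate 4), at 133.8, 123.4 and 114.7 FPKM in knockdown libraries and 129.2, 133.1 and 143.8 FPKM in control libraries. Knockdown replicate 2 lay among the controls and the other two knockdown libraries below them. ACLY, which cleaves citrate to acetyl-CoA for both arms, was at 190.4, 180.6 and 152.9 FPKM in knockdown cells, against 178.8, 184.3 and 179.3 FPKM in control cells. ACACA, the acetyl-CoA carboxylase, ranged from 24.2 to 29.99 FPKM in knockdown libraries and from 24.9 to 31.1 FPKM in control libraries.

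SCD, the desaturase that makes oleate and the most abundant of the 30 transcripts by control mean, was at 294.2, 274.0 and 226.4 FPKM in knockdown libraries, against 267.2, 268.6 and 285.8 FPKM in control libraries. Its knockdown values straddled the controls: replicate 2 was above all of them and replicate 4 below all of them. ELOVL6, which extends palmitate, ranged from 24.4 to 27.9 FPKM in knockdown cells and from 25.5 to 31.0 FPKM in control cells. The polyunsaturated desaturases FADS1 and FADS2 lie side by side on chromosome 11 and overlap in the annotation. FADS1 was at 50.7, 50.7 and 63.4 FPKM in knockdown libraries and at 53.2, 54.7 and 70.9 FPKM in control libraries. The library numbered 4 was the highest in each group, and FADS1 is the fatty acid gene that was not below the controls in knockdown replicate 4, at 106.3% of the control mean. FADS2 was at 129.4, 134.8 and 119.0 FPKM in knockdown libraries, against 135.7, 128.6 and 130.8 FPKM in control libraries.

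**Figure D3:**
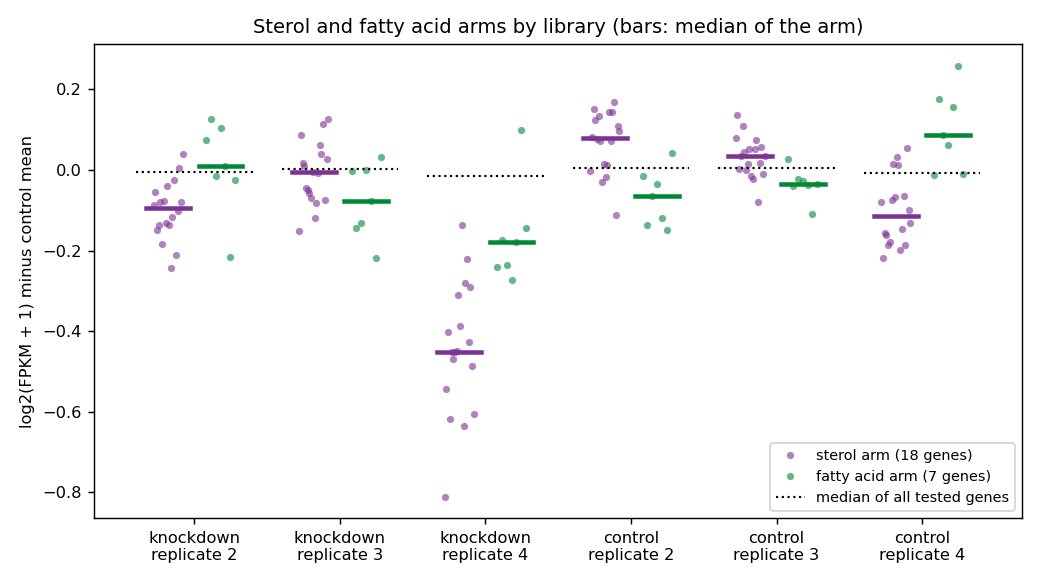
Level of the 18 sterol arm genes (purple) and 7 fatty acid arm genes (green) in each library, as log2(FPKM + 1) minus the control mean (y axis), with a bar at the median of each arm and a dotted line at the median of all tested genes. In knockdown replicate 4 the sterol arm median is -0.45 and the fatty acid arm median -0.18; in control replicate 4 they are -0.12 and 0.09.

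Set side by side, the sterol arm median minus the fatty acid arm median was -0.12 for the difference between groups. By library it was -0.10, 0.07 and -0.27 in knockdown replicates 2, 3 and 4, beside 0.15, 0.07 and -0.20 in control replicates 2, 3 and 4. Its SD over the 3 controls was 0.18, larger than the difference between groups. The sterol arm thus lay below the fatty acid arm in both libraries numbered 4 and in knockdown replicate 2, and above it in the other 3 libraries. This difference was -0.02 without control replicate 2, -0.21 without control replicate 4, -0.19 without knockdown replicate 3 and -0.05 without knockdown replicate 4. The fatty acid arm median itself was -0.0089 without knockdown replicate 4, -0.03 without control replicate 4, -0.13 without knockdown replicate 2 and -0.13 without control replicate 2. Without knockdown replicate 4, 14 of 18 sterol genes and 4 of 7 fatty acid genes were fitted below 0, against 50.7% of tested genes. Without both libraries numbered 4, the counts were 17 of 18 and 3 of 7, against 52.1%. As summed levels, the sterol arm held 1069, 1142 and 833.1 FPKM in knockdown replicates 2, 3 and 4, beside 1228, 1184 and 1066 FPKM in control replicates 2, 3 and 4. The fatty acid arm held 856.5, 814.3 and 724.9 FPKM in the knockdown libraries, against 814.4, 822.9 and 872.8 FPKM in the controls.

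**Figure D4:**
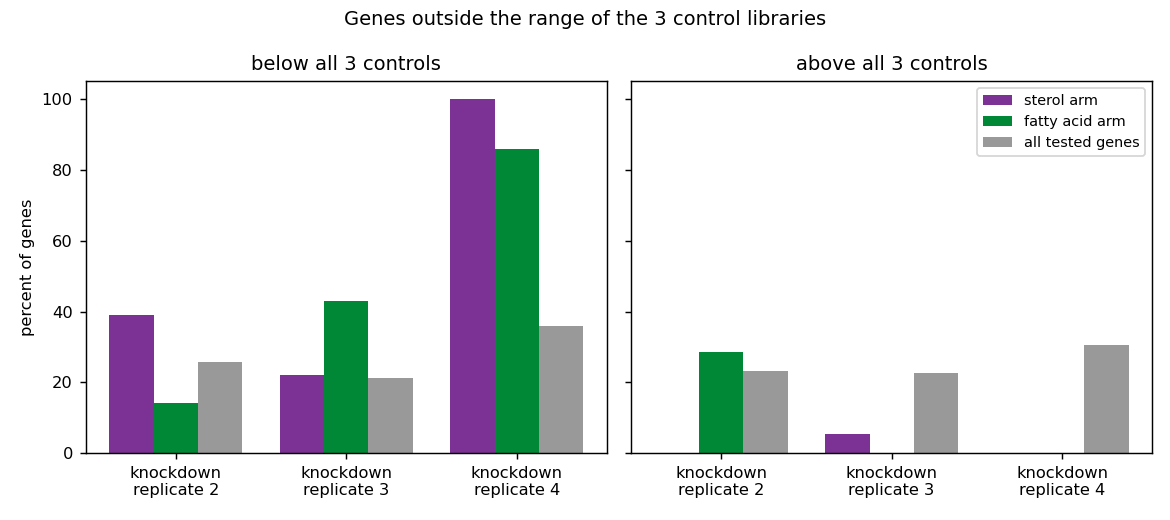
Percent of genes (y axis) that lay below all 3 controls (left panel) or above all 3 controls (right panel) in each knockdown library, for the sterol arm, the fatty acid arm and all tested genes. The sterol arm reaches 100% below the controls in knockdown replicate 4, where all tested genes reach 35.9%. In knockdown replicate 3 it is near the tested genes in the left panel, and at 5.56% against 22.7% in the right panel.

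The controls also differed among themselves in how the sterol and fatty acid arms compared. Control replicate 4 was the lowest control for 13 of 18 sterol genes and for 0 of 7 fatty acid genes, and the highest control for 5 of 7 fatty acid genes, where it was lowest for 43.5% and highest for 39.4% of tested genes. Within the controls, the log2 range of a sterol gene ran from 0.03 to 0.35 and that of a fatty acid gene from 0.04 to 0.41, where FADS1 was the widest. Summed proliferation markers were also lowest in knockdown replicate 4: MKI67, TOP2A, CCNB1 and CDK1 summed to 434.7, 435.2 and 350.7 FPKM in knockdown replicates 2, 3 and 4, beside 431.9 to 476.6 FPKM in the controls. In knockdown replicate 4, 3 of these 4 markers lay below all controls, where 35.9% of tested genes did. MKI67, at 68.9 FPKM there, lay within the control range of 64.6 to 98.5 FPKM. The part of these markers in the sterol result was not tested.

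Promoter sequence was examined because the sterol genes were all low in knockdown replicate 4. RefSeq windows of 250 bases before the gene start (GRCh38.p14) were matched by symbol for 26 of the 30 genes. Each window was searched on both strands for the sterol regulatory element bound by SREBPs (TCACNCCAC), for the CCAAT box bound by NF-Y (CCAAT) and for the GC box bound by Sp1 (GGGCGG). The 5 windows below show the gene with the lowest difference (HMGCS1), a late sterol gene with several CCAAT boxes (MSMO1), the member with a sterol regulatory element (SREBF2) and 2 fatty acid genes, SCD with CCAAT boxes and FADS1 without. They are written 5′ to 3′ on the gene's strand, and capitals mark matches to the 3 motifs in either orientation. HMGCS1 is chr5:43313413-43313662 on the minus strand, MSMO1 chr4:165327419-165327668 on the plus strand, SREBF2 chr22:41832855-41833104 on the plus strand, SCD chr10:100346983-100347232 on the plus strand and FADS1 chr11:61817004-61817253 on the minus strand.
HMGCS1: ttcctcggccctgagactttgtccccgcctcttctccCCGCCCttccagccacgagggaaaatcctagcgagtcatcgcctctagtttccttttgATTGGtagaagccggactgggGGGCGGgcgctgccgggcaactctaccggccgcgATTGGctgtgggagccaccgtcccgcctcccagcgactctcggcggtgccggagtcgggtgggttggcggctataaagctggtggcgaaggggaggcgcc
MSMO1: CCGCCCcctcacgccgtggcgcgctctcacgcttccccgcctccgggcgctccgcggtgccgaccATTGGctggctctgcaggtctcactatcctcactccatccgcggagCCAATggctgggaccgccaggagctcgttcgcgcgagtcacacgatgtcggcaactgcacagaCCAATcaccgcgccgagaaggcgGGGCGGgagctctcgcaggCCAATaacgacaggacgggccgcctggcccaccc
SREBF2: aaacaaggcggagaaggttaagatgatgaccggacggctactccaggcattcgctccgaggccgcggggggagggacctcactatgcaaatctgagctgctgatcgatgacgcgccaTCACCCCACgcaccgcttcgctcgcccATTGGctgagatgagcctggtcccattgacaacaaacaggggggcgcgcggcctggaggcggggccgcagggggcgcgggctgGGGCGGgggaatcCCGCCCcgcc
SCD: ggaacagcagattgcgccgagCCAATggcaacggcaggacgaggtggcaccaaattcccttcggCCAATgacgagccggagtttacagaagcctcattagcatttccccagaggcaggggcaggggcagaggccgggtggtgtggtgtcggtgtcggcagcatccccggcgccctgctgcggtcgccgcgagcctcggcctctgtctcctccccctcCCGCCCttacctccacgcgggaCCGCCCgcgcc
FADS1: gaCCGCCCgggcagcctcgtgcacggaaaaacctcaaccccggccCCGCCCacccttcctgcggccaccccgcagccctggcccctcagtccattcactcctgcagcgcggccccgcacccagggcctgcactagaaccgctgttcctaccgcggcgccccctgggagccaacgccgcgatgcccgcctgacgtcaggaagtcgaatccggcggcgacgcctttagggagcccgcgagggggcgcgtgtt

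In these windows SREBF2 held the sterol regulatory element 133 bases before the RefSeq start, and an inverted CCAAT box 106 bases before it. The RefSeq start of every gene shown lies inside its GENCODE bounds, so the SREBF2 distances are not counted from 41833079. The FADS1 window lies wholly inside the GENCODE bounds of that gene, which run from 61799625 to 61829318. HMGCS1 held 2 CCAAT boxes, both inverted, MSMO1 held 4, SCD held 2 and FADS1 held 0. A CCAAT match was present in 12 of 15 sterol arm windows and 2 of 6 fatty acid arm windows, where 35.8% of 9171 windows of tested genes and 33.0% of all 27305 windows held one. A GC box was present in 14 of 15 sterol and 5 of 6 fatty acid windows, where 68.5% of tested genes' windows and 42.3% of all windows held one. The sterol regulatory element was matched in 1 of the 26 windows, that of SREBF2, where 0.829% of tested genes' windows and 0.875% of all windows held it. These are matches of letters, and no match says only that the letters are not in that window.

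Around the core enzymes, 6 further lists of the pathway held no gene past the adjusted threshold in limma. The isoprenoid branch, which takes farnesyl and isopentenyl diphosphate to dolichol, ubiquinone and protein prenylation, had 8 of 13 genes fitted below 0 and a median log2 difference of -0.03. In knockdown replicate 4, 6 of the 13 lay below all controls, where 35.9% of tested genes did. Genes of SREBP processing and sterol sensing had 6 of 12 fitted below 0, with a median of -5.57e-05; INSIG2 had the smallest p there (log2 -0.19, SE 0.12). Other SREBP targets had 4 of 7 tested genes below 0 and a median of -0.06. Among them TMEM97, a sterol-regulated endoplasmic reticulum protein, was lower without overlap, at 43.7, 45.1 and 38.1 FPKM in knockdown libraries and 45.9, 46.1 and 49.2 FPKM in control libraries. TMEM97 was 1 of 7 to do so, where 4.35% of tested genes did. In knockdown replicate 4, 4 of the 7 lay below all controls and 1 above, against 35.9% and 30.7% of tested genes. The other fatty acid enzymes had 10 of 14 tested genes below 0 and a median of -0.02, and 10 of 13 without ELOVL3, an elongase that passed the filter only through knockdown replicate 4. HSD17B12, a reductase of chain elongation, was lower without overlap, at 53.2, 52.5 and 47.2 FPKM in knockdown libraries and 55.5, 57.9 and 55.5 FPKM in control libraries. MCAT, the mitochondrial malonyltransferase, also on chromosome 22, was at 10.9, 10.3 and 8.94 FPKM in knockdown libraries and at 13.7, 12.4 and 12.1 FPKM in control libraries, with a log2 difference of -0.31 (SE 0.10). HSD17B12 and MCAT were the 2 of 14 lower without overlap in that list, where 4.35% of tested genes were.

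Of the genes of sterol efflux, esterification and oxysterols, 8 of 9 tested were fitted above 0 with a median log2 difference of 0.08, where 46.7% of tested genes were fitted above 0. Without CH25H the count was 7 of 8 and the median 0.08. MYLIP, the ligase that degrades lipoprotein receptors and a target of the sterol-sensing LXR receptors, was at 6.18, 6.72 and 6.25 FPKM in knockdown cells, against 5.10, 5.72 and 5.46 FPKM in control cells. NCEH1, which hydrolyses cholesteryl esters, was at 1.65, 1.49 and 1.87 FPKM in knockdown cells, against 1.34, 1.22 and 0.968 FPKM in control cells. Both were higher without overlap, where 4.01% of tested genes were. CH25H, which makes an oxysterol that blocks SREBP release and is known as an interferon-induced gene, was listed at 0.102, 0 and 6.55 FPKM in knockdown replicates 2, 3 and 4 and at 0 in all 3 controls; it passed the filter only through knockdown replicate 4. Sterol uptake and trafficking genes had 7 of 11 fitted below 0 and a median of -0.04. OSBP, an oxysterol-binding transfer protein, had the smallest p of that list (log2 0.16, SE 0.09) and was at 14.18, 14.01 and 14.43 FPKM in knockdown cells, against 12.37, 11.55 and 13.99 FPKM in control cells. STARD3NL, a late endosomal protein, was lower without overlap, at 41.8, 44.3 and 41.7 FPKM in knockdown cells, against 45.3, 45.3 and 44.7 FPKM in control cells. Without overlap, 1 of the 11 genes was thus higher (OSBP) and 1 lower (STARD3NL), where 4.01% and 4.35% of tested genes were.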

How the data were processed

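Polyadenylated RNA of 6 libraries was measured, 3 of GOMAFU knockdown and 3 of control BE(2)-M17 cells, grouped by the genotype label. The FPKM values are those deposited by the authors, 1 column per library; TopHat2, Cuffdiff and hg38 are named in the submitters' processing notes, with neither their versions nor the annotation. Because FPKM is not a count, a count model was not used. FPKM depends on the mapped total, so abundant transcripts that are higher in a library lower the others. Depth in reads is not known from the table; relative depth came from the most common ratio between libraries among values under 0.2 FPKM.

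The genes whose mean reached 1 FPKM were compared with limma 3.58.1 (R 4.3.3) on log2(FPKM + 1), two-sided, knockdown minus control, with eBayes and an intensity trend, and Benjamini-Hochberg adjustment over all 12164 genes. Fold changes on this scale understate low genes. The fit was tested on simulated data. Lists were described by counts and medians, with no test. The members, lists and alternatives were chosen with earlier results of these data known. Full values are given for genes without overlap, with an unadjusted p under 0.05, with the lowest or highest differences, and for a fixed set of 8. Up to 3 genes a list are named for the others. Alternatives were other pseudocounts, filters, scalings, eBayes settings, library weights, a replicate block and left-out libraries. Coordinates of genes are from GENCODE 29 (GRCh38).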

Additional observations from a re-analysis of the deposited data

How the results depend on the processing

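Over 18 alternatives no member passed the threshold, and 514 of 540 member values kept their direction. The 26 that turned came from 12 genes. Other filters, other eBayes settings and the replicate block cannot change a member's log2 difference here. Their directions were therefore fixed in advance and are counted among those kept. With library weights, 22 genes of the whole table passed (9 higher, 13 lower), the fatty acid arm median was 0.024, and the log2 differences were -0.058 for STARD4, 0.027 for ACLY, 0.11 for ACACA, 0.096 for SCD, 0.024 for ELOVL6 and 0.0072 for FADS2. Those weights ran from 0.153 for knockdown replicate 4 to 7.98 for control replicate 3. Without both libraries numbered 4, 1 gene passed (MIAT, adjusted p = 0.0118 in limma, 0.00299 with library weights and 0.00299 to 1 over all alternatives). The fatty acid arm median was then 0.030, and 3 of its 7 genes were fitted below 0, against 52.1% of tested genes. Lower without overlap were 1 of 7 fatty acid genes and 11 of 18 sterol genes, against 19.4% of tested genes. The log2 differences in that setting were 0.018 for ACAT2, -0.054 for STARD4, 0.030 for ACLY, 0.079 for ACACA, 0.083 for SCD and 0.044 for ELOVL6.

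With each library left out in turn, the sterol arm median ran from -0.27 to -0.062. The log2 difference ran from -0.30 to 0.017 for MVK, -0.15 to 0.019 for NSDHL, -0.26 to 0.0060 for EBP, -0.28 to 0.084 for ACAT2, -0.048 to 0.031 for SCAP, -0.044 to 0.077 for STARD4, -0.12 to 0.036 for ACLY, -0.16 to 0.024 for ACACA, -0.14 to 0.052 for SCD, -0.22 to 0.018 for FADS1 and -0.085 to 0.0044 for FADS2. Without knockdown replicate 4, 4 of 7 fatty acid genes were fitted below 0, against 50.7% of tested genes. In that setting 1 of the 7 was lower without overlap, against 11.7% of tested genes. The counts without libraries numbered 4 were chosen after the data were seen. The cause of these shifts was not tested. Deviations of same-numbered libraries from their group means correlated at 0.09, 0.17 and 0.32 for numbers 2, 3 and 4, so the numbers were not taken as pairs; only the libraries numbered 4 correlated best with each other. With a replicate block, 0 genes passed, with 520 at an unadjusted p under 0.05 against 263 without it. The sterol arm median was again -0.18, which a block cannot change where each number occurs once in each group. The number of libraries limits what could be detected; absolute depth is unknown.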
